A study of Mus musculus with 25 samples.

Results

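The genes described here are 10 cytochrome P450 genes of mouse liver, 7 of the Cyp2c subfamily (Cyp2c29, Cyp2c37, Cyp2c38, Cyp2c50, Cyp2c54, Cyp2c55 and Cyp2c70) and 3 of the Cyp3a subfamily (Cyp3a11, Cyp3a13 and Cyp3a25). They are 10 of the 26 genes with a Cyp2c or Cyp3a symbol among the 48795 genes quantified, and they were matched by symbol to the gene identifiers of the libraries. They were chosen from results of these same libraries, so their values in every comparison between groups are given as a description, without a p-value. All 10 passed the filter on low counts that left 15625 genes for testing.

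RNA was sequenced from 25 pieces of liver or liver tumor of male C57BL/6J mice, an inbred strain. Untreated mice gave 3 livers on control diet (named nonDEN L-CD) and 4 on a western-like diet (nonDEN L-WD). Mice injected with diethylnitrosamine gave 4 livers on control diet (DEN L-CD) and, on the western-like diet, 8 pieces of peritumoral liver (DEN PT-WD) and 6 tumors (DEN T-WD). Diethylnitrosamine (DEN), a carcinogen that hepatocytes activate, was injected into the abdomen at 25 mg/kg at 2 weeks of age, and diets began at weaning. The study's scheme places the harvest at 36 weeks of age, although a later age is given for some injected mice elsewhere in it. Tumors of injected mice on control diet, which not all of them had, were too small to be cut out, so DEN L-CD is liver from which none was separated. No tumor-free liver of injected mice on western diet was among the 5 groups, so for these mice the liver value is that of tissue next to a tumor. The study calls its expression replicates biological, but neither the labels nor the methods tie each RNA library to a mouse, so p-values measure the spread between these samples.

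Cytochrome P450 enzymes are heme proteins of the endoplasmic reticulum that insert 1 atom of oxygen into their substrate, with electrons from P450 oxidoreductase. Cyp2c enzymes oxidize drugs, steroids and arachidonic acid, and several are epoxygenases that turn arachidonic acid into epoxyeicosatrienoic acids. Cyp3a enzymes are the main steroid and drug hydroxylases of liver and gut. In hepatocytes the transcription of many of these genes is controlled by the nuclear receptors CAR (Nr1i3) and PXR (Nr1i2), by HNF4A and by the pattern of growth hormone release, which makes part of both families differ between the sexes, and several are most active in hepatocytes around the central vein.

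The 7 Cyp2c members lie in a single cluster of chromosome 19 (GRCm38, chr19:39007019-40187333), between the start of Cyp2c55 and the end of Cyp2c70, and each has 9 exons. On chromosome 5, Cyp3a11 (chr5:145854426-145879964) and Cyp3a25 (chr5:145977194-146009618) are neighbors, while Cyp3a13 (chr5:137892932-137921619) lies apart from them, and each has 13 exons. The coding sequences of Cyp2c37 and Cyp2c50 were 96.1% identical, those of Cyp2c50 and Cyp2c54 95.2%, and those of Cyp2c37 and Cyp2c54 95.1%. Cyp2c29 and Cyp2c38 were 89.1% identical. Cyp2c70 was the most distant Cyp2c member, at 69.5% to 70.6% identity with the others, and the 3 Cyp3a members were 76.8% to 77.3% identical with each other.

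Such likeness bears on the counts, because reads of 1 gene can match another. Of all words of 50 bases in its transcripts, 30.1% of those of Cyp2c37 also occurred in other genes, as did 25.7% for Cyp2c54, 18.3% for Cyp2c50 and 26.8% for Cyp3a25, nearly all of the last in Cyp3a59. The share was 7.4% for Cyp2c38, 6.7% for Cyp3a11 and 4.2% for Cyp2c29, and 0% for Cyp2c55, Cyp2c70 and Cyp3a13. By this measure the levels of Cyp2c37, Cyp2c50, Cyp2c54 and Cyp3a25 are less certain than those of the other members.

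The sequences just upstream of 6 members are shown because they carry the same 2 divisions as the coding sequences, the near-copies Cyp2c37 and Cyp2c50 and the pair Cyp2c29 and Cyp2c38, beside the distant Cyp2c70 and the most abundant member, Cyp3a11. Each runs 5′ to 3′ from 120 bases before the RefSeq start of transcription through the first 30 transcribed bases (GRCm38.p6). The windows are chr19:39286965-39287114 (plus strand) for Cyp2c29, chr19:39463046-39463195 (minus) for Cyp2c38, chr19:39992304-39992453 (plus) for Cyp2c37, chr19:40089559-40089708 (plus) for Cyp2c50, chr19:40187257-40187406 (minus) for Cyp2c70 and chr5:145879825-145879974 (minus) for Cyp3a11. Capitals mark matches, on either strand, to the 7 motifs searched.
Cyp2c29: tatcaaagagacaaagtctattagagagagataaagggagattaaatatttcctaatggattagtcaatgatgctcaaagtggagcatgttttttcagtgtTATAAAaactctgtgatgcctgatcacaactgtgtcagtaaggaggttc
Cyp2c38: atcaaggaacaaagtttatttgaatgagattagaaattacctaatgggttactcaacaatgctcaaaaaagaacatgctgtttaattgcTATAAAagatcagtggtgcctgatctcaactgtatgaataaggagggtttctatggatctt
Cyp2c37: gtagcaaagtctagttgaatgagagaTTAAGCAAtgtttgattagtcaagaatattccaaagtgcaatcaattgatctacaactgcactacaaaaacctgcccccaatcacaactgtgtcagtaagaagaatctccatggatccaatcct
Cyp2c50: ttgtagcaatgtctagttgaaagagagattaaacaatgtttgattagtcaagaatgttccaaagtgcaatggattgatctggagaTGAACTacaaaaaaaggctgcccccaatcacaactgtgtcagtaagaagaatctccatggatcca
Cyp2c70: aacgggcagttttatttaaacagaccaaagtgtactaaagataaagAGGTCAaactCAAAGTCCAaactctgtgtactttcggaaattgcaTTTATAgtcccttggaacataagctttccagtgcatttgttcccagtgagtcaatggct
Cyp3a11: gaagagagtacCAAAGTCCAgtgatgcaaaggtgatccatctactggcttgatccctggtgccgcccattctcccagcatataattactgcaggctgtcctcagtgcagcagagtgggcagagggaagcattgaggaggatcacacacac

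The motifs were searched on both strands from 250 bases before to 50 after the start in 27025 RefSeq promoters, which include 9 of the 10 members (Cyp2c54 was not matched). The TATA box TATAAA, marked upstream of Cyp2c29, Cyp2c38 and, as its reverse complement, Cyp2c70, was found in 5 of the 9 and in 14.2% of all promoters. The nuclear receptor half-site AGGTCA was found in 4 of the 9 and in 16.0% of all, and the half-site AGTTCA, marked reversed in Cyp2c50, in 2 of the 9 and in 14.0% of all. The HNF4 motif CAAAGTCCA, present in 0.5% of all promoters, was found in 2 of the 9, Cyp3a11 and Cyp2c70. The C/EBP motif TTGCNNAA, marked reversed in Cyp2c37, was found in 2 of the 9 and in 10.8% of all promoters. The STAT motif TTCNNNGAA (8.5% of all) and a palindromic HNF1 motif (0.1% of all) had no match in the 9. AGGTCA and AGTTCA differ at 1 position and match separate places. These matches describe letters, not bound sites. Over the 300 bases, Cyp2c37 and Cyp2c50 were 86.6% identical and Cyp2c29 and Cyp2c38 70.8%, so the upstream divisions followed the coding ones.

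The libraries held 21530083 to 38074411 expected counts each, and no 2 libraries of a group were as alike as sampling noise would make them. The 7 hepatocyte markers, such as albumin, were present in every library, with a summed TPM (a length-corrected share of all transcripts, scaled to the same total in each library) between 35637 and 148828. DEN T-WD replicate 5 stood apart from the other tumors, with a hepatocyte marker sum of 35637 against 124947 to 148828 in the other 5, and its values are given separately where it moves a result. In the 8 peritumoral libraries that sum was 47015 to 75809. Of the other cell types, the summed macrophage markers were 219 to 461 in DEN PT-WD and 217 to 549 in DEN T-WD against 142 to 291 in the other liver groups, and the summed endothelial markers 77.8 to 105 and 95.1 to 112 against 44.3 to 70.9. Stellate cell markers summed to 66.1 to 109 in DEN PT-WD and 102 to 127 in DEN T-WD against 29.4 to 78.5. Pancreatic acinar markers ranged from 9.72 to 5590.1 in DEN PT-WD and from 10.4 to 2022 elsewhere. Cholangiocyte, T cell and B cell markers summed to at most 25.9, 13.1 and 5.45 in any library. Enterocyte markers summed to 94.2 to 338 TPM, and of the gut-defining genes Lct lay below 0.1 TPM in every library of nonDEN L-CD, nonDEN L-WD and DEN L-CD, but not in every peritumoral or tumor library. No list had a marker at 0 in every library. The part of these cell types in the results below was not tested, and in bulk RNA fewer cells of a type and less RNA per cell cannot be told apart.

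Levels are compared between genes in TPM. Across the 5 groups Cyp3a11, the mouse counterpart of the main drug-metabolizing CYP3A enzyme of human liver, was the most abundant member, with group means of 794 to 1936 TPM. Cyp2c29, an arachidonic acid epoxygenase, followed in the liver groups at 734 to 968 TPM. Cyp2c50, an enzyme of arachidonic and linoleic acid oxidation, had group means of 192 to 644 TPM, Cyp2c70, which makes the muricholic acids of rodent bile, 390 to 624, and Cyp3a25, a hepatic steroid hydroxylase of the subfamily, 220 to 492. Cyp2c37, Cyp2c54 and Cyp3a13 lay between 49.3 and 298 TPM, Cyp2c38 between 8.71 and 40.9, and Cyp2c55, best known from the intestine, between 1.66 and 3.56. The 10 members together made up 86.7% of the summed TPM of both subfamilies in nonDEN L-CD and 81.2% in DEN T-WD.

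**Figure D1:**
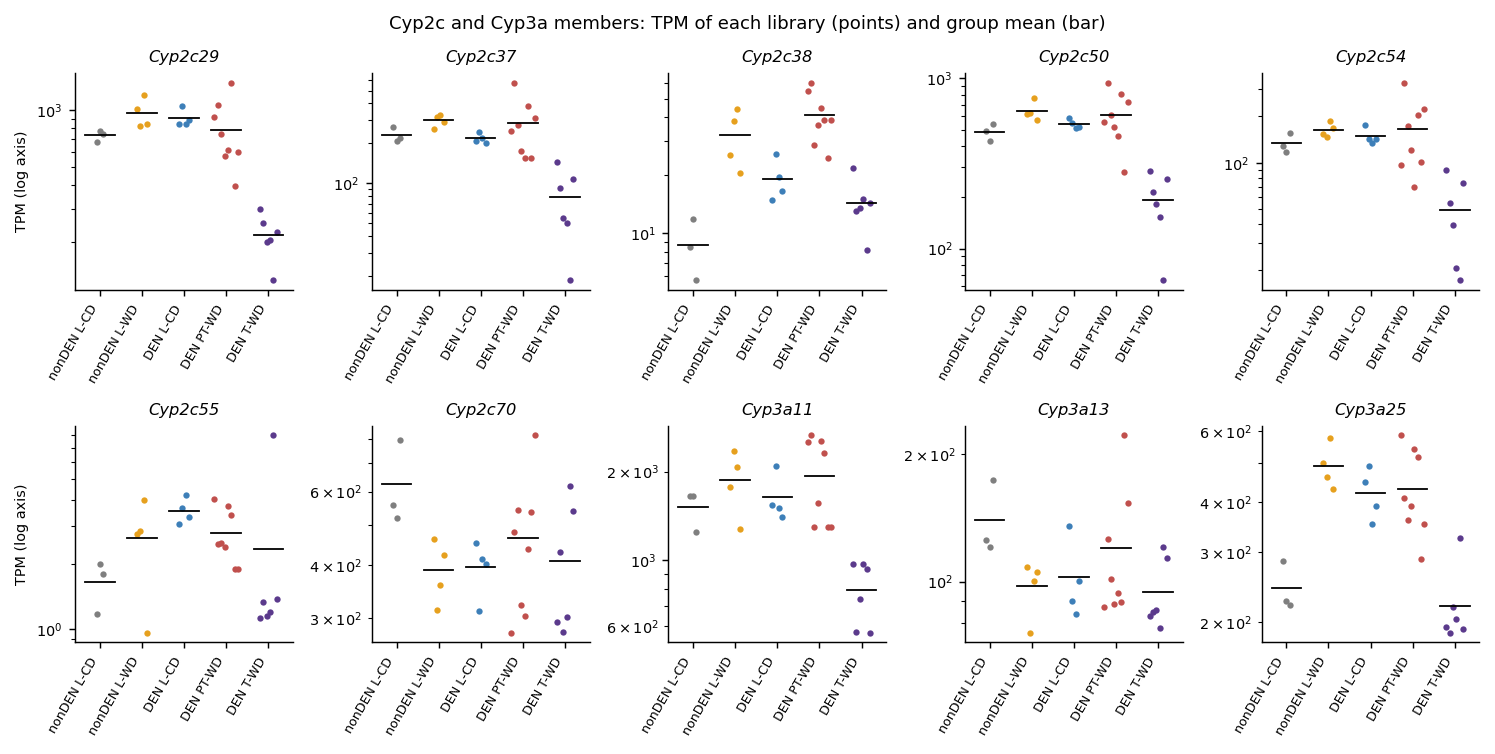
TPM of the 10 members in each of the 25 libraries on a log axis, with a panel per gene, a column of points per group and a bar at the group mean. In the panels of Cyp2c29, Cyp2c37, Cyp2c50, Cyp2c54 and Cyp3a11 the tumors form the lowest column, while in those of Cyp2c70 and Cyp3a13 the tumors overlap peritumoral liver.

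In DEN T-WD against DEN PT-WD, tumor against the liver around it, all 10 members had a lower mean in tumors, from 1.25-fold for Cyp2c70 to 4.01-fold for Cyp2c37. Of the 10, 7 were called lower and 0 higher, where a call needs an adjusted p-value of 0.05 or less over all tested genes and a log2 fold change of 1 or more in either direction. Of all genes tested, 3.09% were called lower and 4.81% higher. The median log2 fold change was −1.52 over the members and 0.01 over all genes. The groups did not overlap in TPM for 4 members and for 10.4% of all genes. Since the members were chosen on these libraries, nothing is read from these counts. The summed hepatocyte markers moved the other way in 5 of the 6 tumors, which had higher sums than every peritumoral library.

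Cyp2c29 was 398 TPM in the lowest, 680 in the median and 1387 in the highest of the 8 peritumoral libraries, and 126, 216 and 299 in the 6 tumors. Every tumor was below every peritumoral library, and the log2 fold change was −1.99 ± 0.24 (SE), a 3.96-fold lower level. Cyp2c38, the close relative of Cyp2c29, was 24.6, 38.7 and 60.2 TPM in peritumoral liver and 8.18, 14.0 and 21.8 in tumors. The groups did not overlap, at a log2 fold change of −1.64 ± 0.23.

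The 3 near-copies Cyp2c37, Cyp2c50 and Cyp2c54, which hydroxylate or epoxidize arachidonic acid, were lower by similar amounts. Cyp2c37 was 154, 260 and 569 TPM (lowest, median, highest) in peritumoral liver and 18.6, 73.9 and 146 in tumors, with no overlap and a log2 fold change of −2.0 ± 0.36. Cyp2c50 was 283, 581 and 938 TPM in peritumoral liver and 65.2, 198 and 284 in tumors. Here the highest tumor reached the lowest peritumoral library, and the log2 fold change was −1.81 ± 0.27. Cyp2c54 was 69.4, 147 and 329 TPM in peritumoral liver and 17.3, 47.2 and 89.4 in tumors, so the groups also overlapped, at −1.90 ± 0.36. Reads shared among these 3 genes cannot be fully assigned, and the part of such reads in their common direction was not tested.

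Cyp3a11 was 1293 TPM in the lowest peritumoral library and 2654 in the highest, with a median of 1940. In tumors it was 570 to 976 with a median of 838, below all peritumoral libraries, and the log2 fold change was −1.41 ± 0.20. Cyp3a25 was 289, 400.0 and 586 TPM in peritumoral liver and 189, 199 and 324 in tumors. Only DEN T-WD replicate 5 at 324 TPM reached into the peritumoral range, and the log2 fold change was −1.12 ± 0.15. With limma on TPM it was −0.96, short of a call. Cyp3a13, an enzyme shared by liver and intestine, was 87.2, 97.7 and 222 TPM in peritumoral liver and 77.8, 85.4 and 121 in tumors. Its ranges overlapped and its log2 fold change of −0.49 ± 0.20 missed the fold threshold.

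Cyp2c70 and Cyp2c55 were not called. Cyp2c70 was 277, 460 and 817 TPM in peritumoral liver and 278, 366 and 620.0 in tumors, ranges that lay almost on top of each other, with a log2 fold change of −0.32 ± 0.24. Cyp2c55 was 1.89, 2.5 and 4.03 TPM in peritumoral liver. In tumors it was 1.12 to 1.37 in 5 libraries and 7.98 in DEN T-WD replicate 5, and the log2 fold change of −0.40 ± 0.37 rests on that library. Without replicate 5, Cyp2c55 had a log2 fold change of −1.27 and was called, which made 8 members called. No other tumor or peritumoral library, left out in turn, moved the members' count outside 7 to 8.

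**Figure D2:**
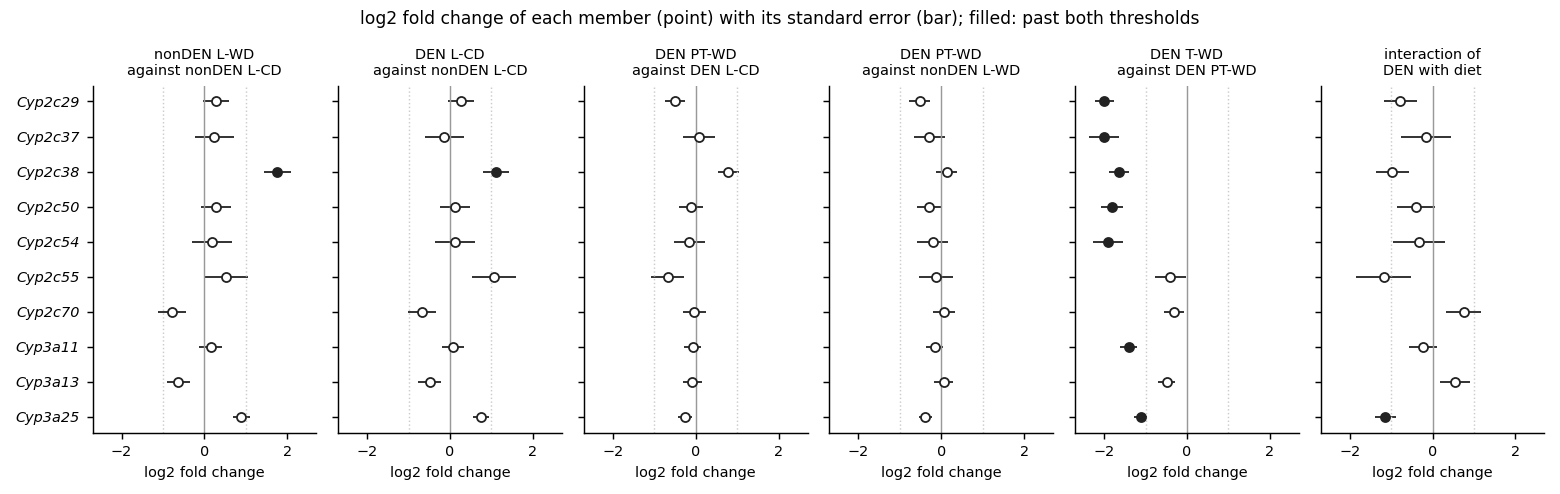
Log2 fold changes of the 10 members (points) with SE (bars) in 5 comparisons of groups and the interaction of DEN with diet, where filled points were called. In tumors against peritumoral liver the values run from −2.0 for Cyp2c37 to −0.32 for Cyp2c70, while in peritumoral against other liver they lie around 0.

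The makeup of the family transcripts also differed between tumors and peritumoral liver. The summed TPM of all Cyp2c genes averaged 3056 in peritumoral liver and 1419 in tumors, and that of all Cyp3a genes 2520.4 and 1134. Cyp2c29 made up 25.7% of the Cyp2c sum in peritumoral liver and 15.3% in tumors, means over libraries. Cyp2c70 made up 15.5% in peritumoral liver and 30.0% in tumors, where it ranged from 17.6% to 56.7%, the highest in replicate 5. Cyp3a11 remained the major Cyp3a transcript, at 75.9% of the Cyp3a sum in peritumoral liver and 69.5% in tumors.

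**Figure D3:**
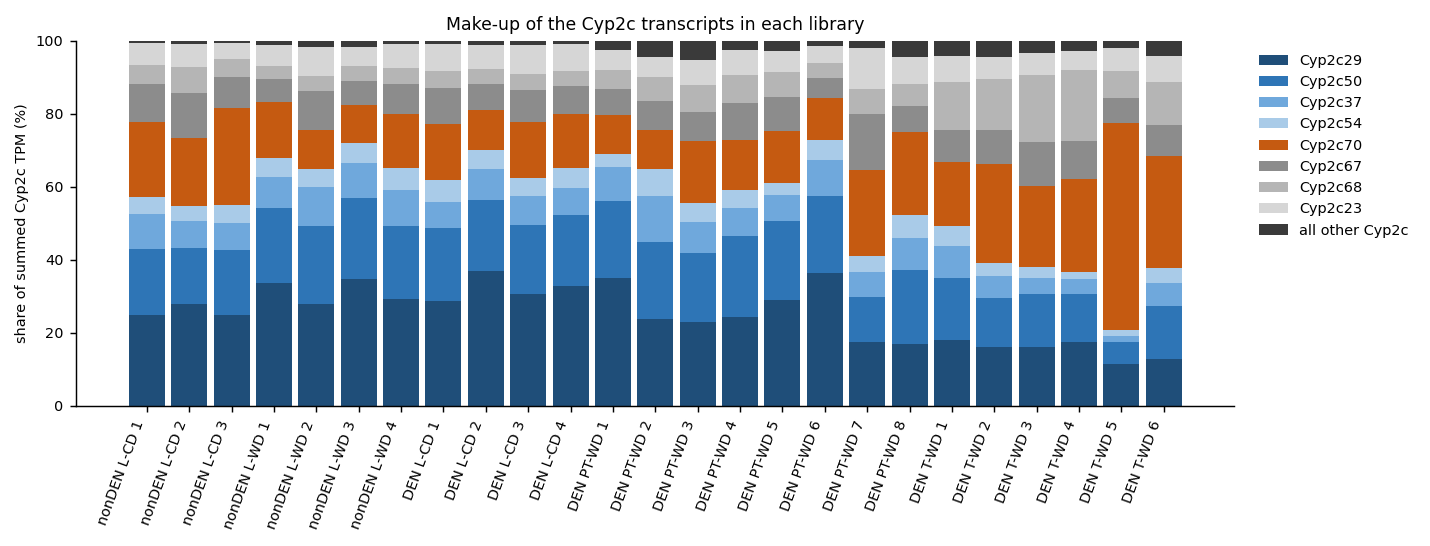
Share (percent) of Cyp2c genes in the summed TPM of all Cyp2c genes, as a stacked bar for each of the 25 libraries. Cyp2c38, Cyp2c55 and the remaining less abundant Cyp2c genes are pooled. Averaged over libraries, the share of Cyp2c29 is 31.4% in nonDEN L-WD and 15.3% in DEN T-WD, while that of Cyp2c70 is 12.8% and 30.0%.

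Diet was compared in untreated mice, nonDEN L-WD against nonDEN L-CD. Here 1 member was called higher, Cyp2c38, and 0 lower, where 3.24% of all genes were called higher and 2.04% lower. The median log2 fold change was 0.26 over the members and 0.01 over all genes, with 8 members above 0 and 2, Cyp2c70 and Cyp3a13, below. With 3 and 4 libraries, the groups did not overlap in TPM for 6 members, and for 21.5% of all genes tested.

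Cyp2c38 was 8.56, 11.8 and 5.72 TPM in the 3 nonDEN L-CD libraries and 25.6, 38.5, 44.2 and 20.7 in the 4 nonDEN L-WD libraries. All western diet libraries were higher, at a log2 fold change of 1.76 ± 0.32, or 3.38-fold. Cyp3a25 was 285, 226 and 221 TPM on control diet and 500.0, 460.3, 576 and 432 on western diet, also without overlap. Its log2 fold change of 0.89 ± 0.20 lay just below the fold threshold, and the next member above it was Cyp2c38.

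Cyp2c29 was 679, 775 and 749 TPM on control diet and 1010.4, 826, 1197 and 838 on western diet. The groups lay apart by a small margin, with a log2 fold change of 0.28 ± 0.32. Cyp2c50 likewise lay apart, at 492, 426 and 538 TPM against 622, 623, 764 and 566. Its log2 fold change was 0.28 ± 0.36, within its error. Cyp2c37, Cyp2c54, Cyp2c55 and Cyp3a11 overlapped between the diets, with log2 fold changes of 0.15 to 0.52.

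Cyp2c70 and Cyp3a13 had the opposite sign. Cyp2c70 was 558, 519 and 796 TPM on control diet and 461, 314, 359.7 and 424 on western diet, a log2 fold change of −0.78 ± 0.33. Cyp3a13 was 126, 120 and 174 TPM on control diet and 108, 75.8, 100.1 and 106 on western diet, at −0.63 ± 0.28. In both, every western diet library was below every control diet library, and neither was called.

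DEN was compared on control diet, DEN L-CD against nonDEN L-CD. The same member was called as for diet, Cyp2c38, with 1 called higher and 0 lower, where 2.76% of all genes were called higher and 1.93% lower. Both comparisons share the 3 nonDEN L-CD libraries, so their likeness is not independent. The median log2 fold change was 0.12 over the members and 0.02 over all genes. The groups did not overlap in TPM for 5 members and for 28.4% of all genes.

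Cyp2c38 was 14.9, 25.7, 19.7 and 16.6 TPM in DEN L-CD, above the 3 untreated control diet libraries, at a log2 fold change of 1.11 ± 0.32. That call was lost without nonDEN L-CD replicate 3 or DEN L-CD replicate 2, which left 0 members called. Cyp3a25 was 448, 493, 352 and 390 TPM, without overlap and at 0.75 ± 0.20. Cyp2c55, inducible through CAR and PXR, was 3.08, 3.64, 4.21 and 3.31 TPM against 1.17, 2.01 and 1.80 in untreated mice. The groups lay apart, and the log2 fold change of 1.06 ± 0.53 was not called. Cyp2c29 was 845, 1044, 840 and 880 TPM, also above untreated mice, at a log2 fold change of only 0.26 ± 0.32. Cyp2c70 was 453, 312, 413 and 404 TPM, below the 3 untreated libraries, at −0.68 ± 0.33. Cyp2c37, Cyp2c50, Cyp2c54, Cyp3a11 and Cyp3a13 overlapped, with log2 fold changes of −0.49 to 0.12.

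Peritumoral liver was compared with the liver of injected mice on control diet and of untreated mice on western diet, and no member was called in either comparison. Untreated liver also differs from it in nearness to a tumor, while for DEN L-CD that nearness is not known. Against DEN L-CD, which differs in diet, 0 members were called higher or lower, where 1.52% of all genes were called higher and 0.378% lower. Against nonDEN L-WD, which differs in DEN, 0 were called, where 2.36% of all genes were called higher and 0.41% lower. No member lay apart in either comparison, where 21.3% of all genes did so against DEN L-CD and 9.97% against nonDEN L-WD. The log2 fold changes ranged from −0.67 for Cyp2c55 to 0.79 for Cyp2c38 against DEN L-CD and from −0.52 for Cyp2c29 to 0.13 for Cyp2c38 against nonDEN L-WD. The 8 peritumoral libraries were spread widely. Cyp2c29 had an SD of 320.0 TPM around a mean of 787, against an SD of 174 around 968 in nonDEN L-WD.

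The sign of a small difference can depend on the scale. Cyp3a11 had a higher mean TPM in peritumoral liver, 1936, than in DEN L-CD, 1638, or nonDEN L-WD, 1867, while its log2 fold changes from counts were −0.07 ± 0.21 and −0.16 ± 0.21. Cyp2c29 was lower in peritumoral liver on both scales. The tumors were lower than peritumoral liver on both scales.

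The difference between the diet effects in injected and untreated mice was called for 1 member, Cyp3a25, which was lower, with 0 higher, where 1.57% of all genes were called higher and 1.18% lower. Its log2 fold change on western diet was 0.89 ± 0.20 in untreated mice and −0.26 ± 0.16 in injected mice, a difference of −1.14 ± 0.26. Cyp2c55 (−1.18 ± 0.67) and Cyp2c38 (−0.97 ± 0.40) had differences of similar size that were not called. This contrast sets whole liver against peritumoral liver in injected mice, so diet and nearness to a tumor cannot be told apart in it.

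In the order of group means, most neighboring groups overlapped for every member. Exceptions were DEN T-WD, which lay wholly below the next group for Cyp2c29, Cyp2c37, Cyp2c50, Cyp2c54 and Cyp3a11, and the step of Cyp3a25 from nonDEN L-CD to DEN L-CD. In all 5 the next group was one on control diet. Taken as a ratio of group means, Cyp2c38 had the widest spread outside tumors, with 40.9 ± 12.1 TPM (SD, n = 8) in peritumoral liver against 8.71 ± 3.06 (SD, n = 3) in untreated liver on control diet.

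Within groups, several members varied together. Over the 25 libraries, each taken as its deviation from its group mean of log2 CPM (counts scaled to library size), Cyp2c37 correlated with Cyp2c50 (Pearson r = 0.94, Spearman rho = 0.88) and with Cyp2c54 (r = 0.91, rho = 0.90), and Cyp2c29 with Cyp2c50 (r = 0.84, rho = 0.72). The near-copies share 50-base words, and the part of shared reads in their correlations was not tested. Cyp2c70 followed Cyp3a13 (r = 0.76, rho = 0.80), with which it shares no word of 50 bases, and ran opposite to Cyp3a11 (r = −0.59, rho = −0.59). Cyp3a11 followed Cyp3a25 (r = 0.65, rho = 0.61) and Cyp2c38 (r = 0.61, rho = 0.70). The correlation of Cyp2c37 with Cyp2c55 (r = −0.56) was −0.18 without DEN T-WD replicate 5. These are descriptions over libraries that share depth and tissue makeup.

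**Figure D4:**
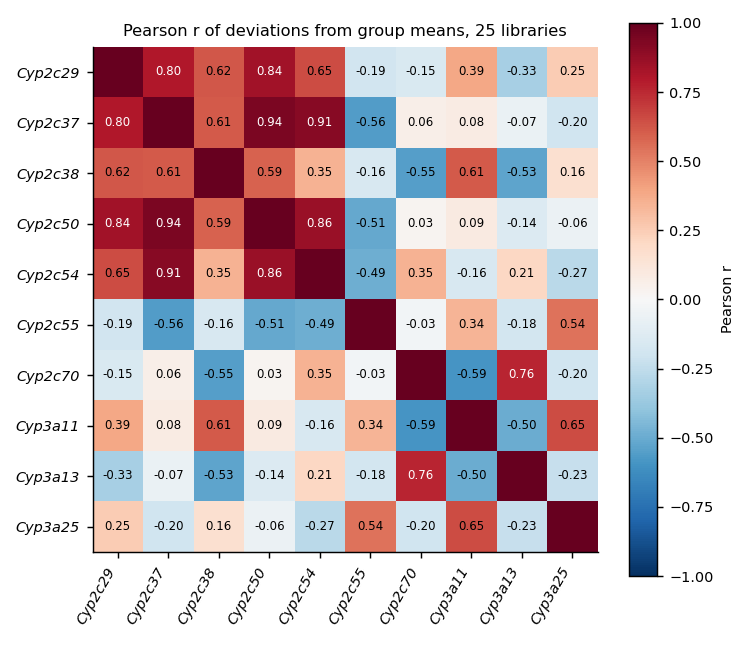
Pearson correlation, as color and number, between members of the deviations from group means of log2 CPM over 25 libraries. Cyp2c29, Cyp2c37, Cyp2c50 and Cyp2c54 form a block with values of 0.65 to 0.94, and Cyp2c70 and Cyp3a13 pair at 0.76.

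Genes outside both subfamilies with the most similar deviations by Pearson r were sought among 10314 genes for 4 members. By Spearman rho the same 3 genes led for Cyp2c29, but only 2 of the 3 for Cyp3a11 and 1 each for Cyp2c70 and Cyp2c55. For Cyp2c29 they were Hsd11b1 (r = 0.87), which reactivates glucocorticoids, Akr1c6 (0.86) and Emc6 (0.83). Cyp3a11 varied most like Rdh16 (0.85), a retinol and steroid dehydrogenase, Ces1e (0.84) and Acaa1b (0.82), and Cyp2c70 most like Cyp7b1 (0.83), an oxysterol hydroxylase of bile acid synthesis, Tmem209 (0.81) and Erap1 (0.80). The 3 genes of highest r with Cyp2c55 were the glutathione S-transferases Gstm3 (0.91) and Gstm2 (0.91) and Cryl1 (0.91). Their correlations were 0.84, 0.81 and 0.78 without DEN T-WD replicate 5, where Gstm3 was 1672 TPM against 48.4 to 129 in the other tumors.

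Of the 16 other family genes, 14 were tested, and their adjusted p-values are from edgeR's quasi-likelihood test. Cyp2c39, a retinoic acid hydroxylase 94.2% identical to Cyp2c38 in coding sequence, rose on western diet by 2.30 ± 0.42 on the log2 scale (adjusted p = 0.00053) and with DEN by 1.73 ± 0.42 (adjusted p = 0.0053). It was lower in tumors than in peritumoral liver, at −1.47 ± 0.27 (adjusted p = 0.00024). With limma on TPM, the last 2 values were 0.87 and −0.91, short of a call. From 0.533 TPM in nonDEN L-CD its mean went to 2.93 on western diet and 1.85 with DEN, so both Cyp2c38 and its relative stood higher in the same groups. Cyp3a59, 97.5% identical to Cyp3a25, rose on western diet by 1.54 ± 0.35 (adjusted p = 0.0035), and its value with DEN was 0.97 (adjusted p = 0.051). In tumors against peritumoral liver, 4 of 8 other Cyp2c genes tested fell, namely Cyp2c23, an epoxygenase best known from kidney (−1.26 ± 0.19, adjusted p = 1.9e-05), Cyp2c67 (−1.08 ± 0.18, adjusted p = 8.1e-05), Cyp2c39 and the pseudogene Cyp2c53-ps (−1.64 ± 0.59, adjusted p = 0.03), which stayed below 1 TPM. Cyp2c68 was −0.08 ± 0.21 (adjusted p = 0.79). Cyp3a57 rose by 1.07 ± 0.29 (adjusted p = 0.006), the only one of 6 other Cyp3a genes called there, at means of 0.417 TPM in peritumoral liver and 0.945 in tumors. The calls of Cyp2c67 and Cyp3a57 were lost with single libraries left out, Cyp2c67 without DEN PT-WD replicate 2 or DEN T-WD replicate 5 (fold change just under the threshold) and Cyp3a57 without DEN PT-WD replicate 6 or 7 or DEN T-WD replicate 3 or 4. Cyp2c53-ps lost its call in 8 of 19 alternatives, with adjusted p-values of up to 0.074. It was also called lower in DEN PT-WD against DEN L-CD (−1.69 ± 0.50, adjusted p = 0.033), a call lost in 9 of 17.

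Cyp2c40 and Cyp2c69, which are known to be higher in female than in male mice, were called higher in peritumoral liver. Cyp2c40 rose by 3.26 ± 0.93 against DEN L-CD (adjusted p = 0.027) and by 4.01 ± 0.98 against nonDEN L-WD (adjusted p = 0.012), and Cyp2c69 by 4.38 ± 1.31 (adjusted p = 0.035) and 5.12 ± 1.38 (adjusted p = 0.020). The highest values lay in the same 3 of the 8 libraries. Cyp2c40 was 77.4, 89.6 and 65.5 TPM in DEN PT-WD replicates 2, 3 and 8 and at most 16.4 in the other 5, against 1.1 to 8.02 in the 11 other liver libraries, so 5 of the 8 exceeded all of these. The tumors were also above those 11 libraries in 5 of 6, at 13.2 to 36.7 TPM, with 2.25 in DEN T-WD replicate 5, and tumor against peritumoral liver was −0.68 ± 0.67 (adjusted p = 0.46). Cyp2c69 was 58.5, 50.5 and 44.3 TPM in the same 3 and at most 3.91 in the others. Among the peritumoral libraries the same 3 were also the highest for Cyp3a16, Cyp3a41a and Cyp3a44, which were not called, with adjusted p-values of 0.073 to 0.12. Their peritumoral means were low, at 0.307, 5.86 and 0.833 TPM, and 98.6% of the words of Cyp3a41a occur in other genes. Cyp3a41b, a near-copy of Cyp3a41a at means of 0.175 to 0.245 TPM in these groups, was −0.35 ± 1.56 against DEN L-CD (adjusted p = 0.91) and 0.32 ± 1.61 against nonDEN L-WD (adjusted p = 0.92). The call of Cyp2c40 against DEN L-CD was lost with any 1 of the 4 DEN L-CD libraries left out, with adjusted p-values of up to 0.11 over the alternatives, and that of Cyp2c69 without any 1 of those 4 or without replicate 2, 3 or 8 of DEN PT-WD, with values of up to 0.092. Against nonDEN L-WD, Cyp2c40 lost its call in 1 of 19 alternatives (adjusted p up to 0.087), and Cyp2c69 lost its call without nonDEN L-WD replicate 1, 3 or 4. Of the words of 50 bases of Cyp2c40, 60.3% occur in other genes, and 36.7% in Cyp2c69. Of those of Cyp2c69, 54.3% occur in other genes, and 46.5% in Cyp2c40. Cyp2c67 and Cyp2c68, at group means of 122 to 295 TPM, share 40.0% and 35.6% of their words with Cyp2c40. The levels of these genes therefore cannot be told apart with certainty.

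**Figure D5:**
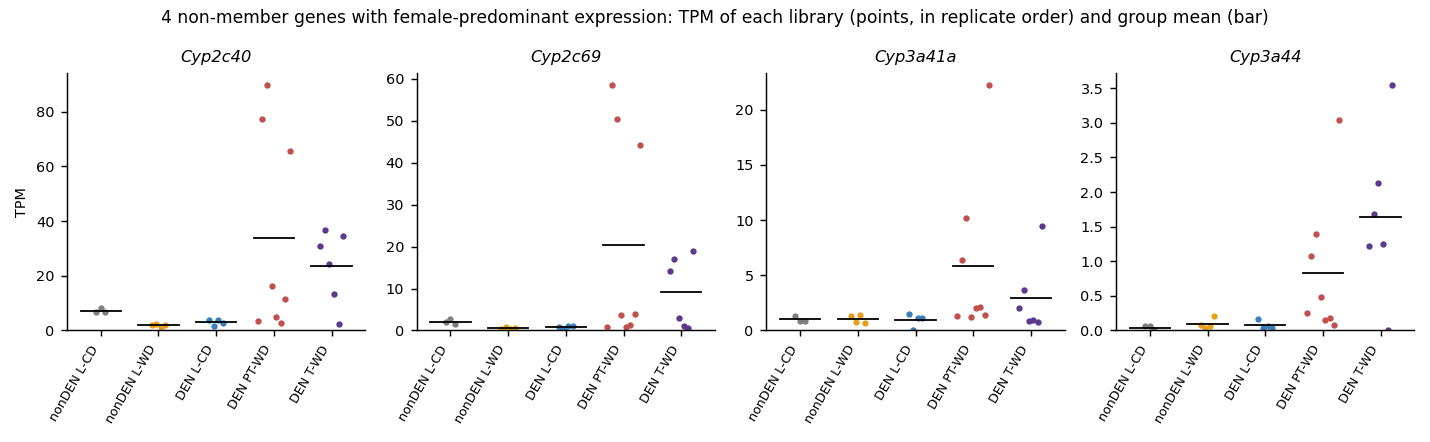
TPM on a linear axis of Cyp2c40, Cyp2c69, Cyp3a41a and Cyp3a44 in each library by group, with a bar at the group mean. In the DEN PT-WD column 3 libraries lie above the rest for each gene, for Cyp2c40 at 65.5 to 89.6 TPM against at most 16.4.

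Among 14 receptors and factors of Cyp2c and Cyp3a transcription, 1 was called in tumors against peritumoral liver. Nr1i3 (CAR) fell by 1.46 on the log2 scale (SE 0.22, adjusted p = 2.4e-05), from a mean of 86.7 to 35.5 TPM. Nr1i2 (PXR) was −0.36 ± 0.10 (adjusted p = 0.0097), short of the fold threshold, and Hnf4a 0.04 ± 0.10 (adjusted p = 0.79). The median of the 14 was −0.32. On western diet Nr1i3 rose by 1.04 ± 0.31 (adjusted p = 0.018), a call lost in 5 alternatives, and Hnf4a was −0.57 ± 0.14 (adjusted p = 0.0053). None of the 14 was called in the other comparisons.

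Of 13 genes for electron transfer and heme supply, Alas1, which starts heme synthesis, fell in tumors (−1.03 ± 0.22, adjusted p = 0.00076) and 12 were not called, at a median of −0.30 for the list. The Alas1 call was lost in 5 of 21 alternatives, among them without DEN PT-WD replicate 2 or DEN T-WD replicate 2 or 4, at log2 fold changes as weak as −0.88. Por, the electron donor of these enzymes, was −0.74 ± 0.21 (adjusted p = 0.0074). No gene of this list was called in the other comparisons. Of 14 other target genes of PXR and CAR, 3 rose and 3 fell in tumors, with a median of 0.0. Cyp2b10, the classic CAR target, fell by 1.89 (SE 0.53, adjusted p = 0.0073), at means of 1.21 and 0.412 TPM, a call lost with limma on TPM (−0.55, adjusted p = 0.061). The transporters Abcc4 (2.23 ± 0.62, adjusted p = 0.0069) and Abcb1a (1.07 ± 0.20, adjusted p = 0.00025) and the glutathione S-transferase Gsta1 (2.37 ± 0.75, adjusted p = 0.016) rose. Gsta1 was 3244 TPM in DEN T-WD replicate 5 and 63.7 to 157 in the other tumors, and without that library it was −0.15. Abcc4 lost its call without the same library, at 0.23 (adjusted p = 0.62). On western diet 5 of the 14 rose and none fell (median 0.76), among them Cyp2a5 (2.02 ± 0.71, adjusted p = 0.042), a coumarin hydroxylase. With DEN 2 rose, Cyp2a5 (2.18 ± 0.71, adjusted p = 0.032) and Abcb1a (1.03 ± 0.33, adjusted p = 0.027). The Cyp2a5 calls were lost in 7 and 5 of 13 alternatives, with adjusted p-values of up to 0.16. The calls of Abcb1a were lost in 6 of 14 alternatives with DEN (adjusted p up to 0.21) and in 4 of 21 in tumors, among them without DEN PT-WD replicate 7 or DEN T-WD replicate 3 or 5, where the fold change fell just short. Abcb1a also rose in peritumoral liver, by 1.32 ± 0.25 against DEN L-CD (adjusted p = 0.0032) and 1.27 ± 0.25 against nonDEN L-WD (adjusted p = 0.0035), the only gene of the list called there.

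Of the 14 tested epoxide hydrolases and other arachidonic acid P450s, 7 fell and 1 rose in tumors, with a median of −1.01. The omega-hydroxylase Cyp4a14 fell by 1.92 (SE 0.54, adjusted p = 0.0076) and Cyp2j5 by 1.40 (SE 0.10, adjusted p = 7.7e-09), while Cyp4a31 rose by 2.02 ± 0.42 (adjusted p = 0.00073). Ephx2, the soluble epoxide hydrolase that breaks down the epoxides, was −0.92 ± 0.17 (adjusted p = 0.00017), short of the fold threshold. Outside tumors, 1 gene of the list was called, Cyp2j9 in the interaction (−1.40 ± 0.24, adjusted p = 0.0015).

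In bile acid synthesis, 4 of 10 genes fell in tumors and none rose (median −0.96). They were Cyp7a1, the rate-limiting enzyme (−1.68 ± 0.29, adjusted p = 0.0001), Cyp8b1 (−1.62 ± 0.20, adjusted p = 3.5e-06), Cyp7b1 (−1.52 ± 0.35, adjusted p = 0.0018) and Cyp27a1 (−1.27 ± 0.10, adjusted p = 1.4e-08). Cyp2c70, which acts on their products, was not among the members called. Cyp7a1 rose on western diet by 3.87 ± 0.46 (adjusted p = 6.6e-06) and with DEN by 3.61 ± 0.45 (adjusted p = 1.2e-05), from 6.77 TPM in nonDEN L-CD to 119 and 98.9, the only gene of the 10 called there. In the interaction of DEN with diet, which also includes nearness to a tumor, Cyp7a1 was −3.39 ± 0.52 (adjusted p = 0.00054). Cyp8b1 was −1.17 ± 0.35 there (adjusted p = 0.043, lost in 14 of 26 alternatives).

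Of 14 other xenobiotic P450s, 3 fell in tumors, led by the ethanol- and nitrosamine-oxidizing Cyp2e1 (−1.67 ± 0.17, adjusted p = 1.8e-07), from 5353 to 1832 TPM, and 1 rose (median −0.50). The one that rose, Cyp1a1, a target of the aryl hydrocarbon receptor, was 33.6 TPM in DEN T-WD replicate 5 and 0.26 to 0.65 in the other tumors. Its value was 3.18 ± 0.83 (adjusted p = 0.0042) with and −0.51 without that library. Cyp2g1, at means of at most 1.29 TPM in these 3 groups, rose on western diet (3.10 ± 0.60, adjusted p = 0.00094) and with DEN (3.13 ± 0.60, adjusted p = 0.00089). With limma on TPM these were 0.93, short of a call, and 1.02.

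Of 12 pericentral genes, 7 fell in tumors and none rose (median −1.31), with Oat, ornithine aminotransferase, at −1.82 ± 0.16 (adjusted p = 3.9e-08) and Glul, glutamine synthetase, at −1.34 ± 0.14 (adjusted p = 4.1e-07). Of 10 periportal genes none was called in any comparison, and their median in tumors was −0.83. The lists share Cyp2e1, Cyp1a2 and Cyp2f2 with the xenobiotic P450s. On western diet 3 pericentral genes rose (median 0.81), among them Lgr5, a Wnt pathway receptor (1.28 ± 0.24, adjusted p = 0.00068).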

How the data were processed

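RNA was sequenced from 25 liver and tumor samples in 5 groups taken from the labels. The authors checked reads with FastQC, aligned them to GRCm38 with STAR and estimated each gene with RSEM, per the submitters' processing notes, and the versions of STAR and RSEM are not given in the sources used here. The deposited expected counts are not normalized and need not be whole, since RSEM divides reads that match several genes. The expected count was not whole in 100% of libraries for Cyp2c37, Cyp2c38, Cyp2c50 and Cyp2c54 (tolerance 0.005). That share was 96% for Cyp2c29, Cyp3a11 and Cyp3a25, 8% for Cyp2c55, 4% for Cyp3a13 and 0% for Cyp2c70. TPM, also by the authors through RSEM, is a share of transcripts corrected for length, and the deposited FPKM values served as an alternative scale.

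Expected counts were rounded and tested with edgeR 4.0.16 (R 4.3.3; quasi-likelihood, TMM, filterByExpr with a minimum count of 10), in 1 fit over the 5 groups and with Benjamini-Hochberg adjustment over 15625 genes. The study's thresholds were used (adjusted p-value up to 0.05, log2 fold change of 1 or more either way). Alternatives were DESeq2 1.42.0, limma 3.58.1 on log2(TPM + 1), other scaling and filters, fits of only the groups compared, a replicate block and each library left out. Fitting was tested on simulated data. Libraries' depth limits genes with few counts. Python 3.11.15, NumPy 2.4.6, pandas 2.3.3, Matplotlib 3.10.9 and Biopython 1.88 were used for summaries, figures and sequences. Identity is over aligned coding sequence, and promoters are RefSeq's.

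The members, lists and tests were chosen with earlier results of these data known. The naming rule took all members, the other Cyp2c and Cyp3a genes (given by counts where not called), Nr1i2, Nr1i3, Hnf4a, Por, Ephx2, Cyp2b10 and, per list and comparison, the called gene of largest change in each direction. For 4 members the 3 genes of most similar deviation, with at least 100 normalized counts on average, are named. Abcc4, Cyp2j5, Cyp8b1, Cyp7b1, Cyp27a1, Glul and Gstm2, where not so named, were chosen after their values were seen. Equal replicate numbers in different groups are not said to mark the same mouse, so a block on them was only an alternative. Fluxes and metabolic assays of the study were not analysed here.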

Additional observations from a re-analysis of the deposited data

Results flagged for a closer look

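In 2 of the 40 sets of a member's libraries of 1 group tested for a sample far from the others, such a sample was found, and chance gives about 1 in 20. Both lay in DEN T-WD replicate 5, with Cyp2c55 at 7.98 TPM, a gap to the nearest tumor of 0.96 of the range, and Cyp3a25 at 324.17 TPM, a gap of 0.78 of the range. In the same library Cyp2c37 was 18.6 TPM against 50.4 to 146 in the other tumors, Cyp2c50 was 65.2 TPM against 154 to 284, and Cyp2c70 was 620.0 TPM against 278 to 539.

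The interaction term of the fit, the diet difference in DEN-injected mice less that in untreated mice, was called for 9 of the genes named. Its injected mice on western diet are represented by peritumoral liver, so diet and nearness to a tumor cannot be told apart in it. Genes were named partly by this term, so nothing is read from their count. Of all genes tested, 1.57% were called higher in it and 1.18% lower. The differences on the log2 scale were −1.14 for Cyp3a25 (a member, given as a description), 5.32 ± 1.38 for Cyp2c40 (adjusted p = 0.019), 6.54 ± 1.98 for Cyp2c69 (adjusted p = 0.043), −3.39 for Cyp7a1 (adjusted p = 0.00054), −2.62 ± 0.70 for Cyp2g1 (adjusted p = 0.024), −1.40 for Cyp2j9 (adjusted p = 0.0015), −1.54 ± 0.30 for Lgr5 (adjusted p = 0.0034), −1.11 ± 0.27 for Oat (adjusted p = 0.013) and −1.17 ± 0.35 for Cyp8b1 (adjusted p = 0.043). Cyp2c40 and Cyp2c69 were highest in DEN PT-WD replicates 2, 3 and 8, and no fit left out these 3 together. Of 26 alternatives, the call of Cyp2c69 was lost in 16 (adjusted p up to 0.17), that of Cyp8b1 in 14 (up to 0.15), that of Cyp2g1 in 4 (up to 0.20), that of Oat in 3 (up to 0.056) and those of Cyp2c40 and Cyp2j9 in 1 each.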

How the results depend on the processing

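The count of members called in tumors against peritumoral liver was 7 to 8 with single libraries left out and 6 with limma, where Cyp3a25 was −0.96. For peritumoral liver against nonDEN L-WD it was 0 and in the interaction 1 under every alternative run. For western diet in untreated mice it was 1, and 2 with limma on log2(TPM + 1) or with no minimum fold change. For DEN on control diet it was 1, 2 with no minimum fold change, with only the groups compared or with the replicate block, and 0 to 1 with single libraries left out. For peritumoral liver against DEN L-CD it was 0, and 1 with limma or no minimum fold change. Of 1130 alternative log2 fold changes of members, 8 gained and 3 lost the call, and 25 had the other sign, all of values not called and of at most 0.26 in size. Of 4335 for other named genes, 142 lost and 70 gained a call and 107 had the other sign. Of those 107, a called value was turned in 2, Gsta1 and Cyp1a1 in tumors without DEN T-WD replicate 5. With single libraries left out Gsta1 ran from −0.15 to 2.60 and Cyp1a1 from −0.51 to 3.43. Deviations of same-numbered libraries had r from −0.23 to 0.388 (means −0.01 to 0.149), and no contrast had every pair above 0.1, so the numbers were not taken to pair the samples. In fits of only the groups compared, the replicate block moved the genes called among all tested from 686 to 747 for diet, 724 to 308 for DEN, 284 to 354 and 367 to 165 for peritumoral liver against DEN L-CD and nonDEN L-WD, 1073 to 897 in tumors and 490 to 460 in the interaction. With limma on TPM, 300, 234, 180, 206, 539 and 240 genes were called in the 6 contrasts, against 825, 734, 297, 432, 1235 and 430, the median of all genes was 0.227 and 0.159 for peritumoral liver against DEN L-CD and nonDEN L-WD and 0.147 in the interaction, where it was 0.019, 0.003 and 0.028 with edgeR, and the share called higher moved from 58.9% to 44.4% for DEN, 60.9% to 71.4% in tumors and 57.0% to 81.7% in the interaction.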
